A study of Mus musculus with 14 samples.

Results

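Genes with a high intron signal for their exon signal were examined in total RNA from lactating mammary tissue. The deposited files give an exon and an intron FPKM (fragments scaled to gene length and library total) for each gene, and the ratio of the intron to the exon FPKM was the measure used. Members were selected on these measured values: an exon FPKM averaging 10 or more over 2 mice, and an average intron FPKM that was 0.15 or more of it. *Tbrg4*, *Gas5* and all symbols that begin with Snhg or Srsf were left out by name. The rule gave 107 genes among 20515 with a usable symbol, and among 3112 that passed the exon threshold. Both mice carried the label WT_wTbrg4, that is, 1 wild-type allele and 1 Wap-Tbrg4 fusion allele, in which a CRISPR-Cas9 deletion made in C57BL/6 zygotes placed the *Wap* super-enhancer and promoter on the body of *Tbrg4*. Tissue was taken at day 10 of lactation (L10). The 12 ChIP-seq samples of the series are not analysed here. With 2 mice of 1 genotype there was no second condition, so the values below are descriptions without a test. The labels do not state whether the mice were littermates.

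Introns are removed from a pre-mRNA by the spliceosome, mostly while the gene is still being transcribed. A total RNA library also takes up unspliced and partly spliced transcripts, excised introns, and RNAs processed out of introns. Most small nucleolar RNAs (snoRNAs) of mammals lie in introns of host genes, and are trimmed from the excised intron to guide the modification of ribosomal and spliceosomal RNA. Many genes of splicing factors are known for introns that are spliced late or not at all and keep the transcript in the nucleus or expose it to nonsense-mediated decay. A ratio of FPKM does not tell these sources apart, and is not the fraction of unspliced RNA.

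The 3 genes with the highest ratios, *Eif4a1*, *Taf1d* and *Eif4a2*, and the sixth, *Rpl7a*, carry 18 annotated snoRNAs in their introns. Some of these RNAs are printed here because they are the annotated intron products of the genes that lead the list. They were read from the GRCm38.p6 assembly (mm10) at positions annotated by RefSeq, and are written 5′ to 3′. Capitals mark TGATG of the C box and CTGA of the D box in C/D box RNAs, and ACA near the 3′ end in H/ACA box RNAs, as found on the transcribed strand. All RNAs printed carry such marks, so they do not show how often the letters occur. Of the RNAs of these genes that are not printed, Snora81 in *Eif4a2* and Z40 in *Taf1d* were left unmarked. Of 338 C/D box RNAs in introns of all genes, 84.0% held TGATG within their opening 40 bases and CTGA within their closing 15 bases, compared with 0.505% of 198 H/ACA box RNAs. ACA stood within the closing 12 bases of 82.8% of the H/ACA box RNAs and of 5.92% of the C/D box RNAs.
SNORA48 in *Eif4a1*, chr11:69669635-69669778, minus strand: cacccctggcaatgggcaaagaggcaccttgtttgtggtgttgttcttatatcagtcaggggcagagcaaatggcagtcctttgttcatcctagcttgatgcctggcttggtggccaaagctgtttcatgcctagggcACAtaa
SNORD10 in *Eif4a1*, chr11:69668852-69668995, minus strand: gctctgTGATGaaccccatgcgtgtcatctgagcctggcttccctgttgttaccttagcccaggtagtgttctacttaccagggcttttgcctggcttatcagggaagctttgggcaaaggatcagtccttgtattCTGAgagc
SNORA67 in *Eif4a1*, chr11:69667834-69667976, minus strand: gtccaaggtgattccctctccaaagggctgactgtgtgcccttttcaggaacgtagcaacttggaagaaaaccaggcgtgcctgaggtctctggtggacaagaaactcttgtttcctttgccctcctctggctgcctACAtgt
Snord2 in *Eif4a2*, chr16:23108953-23109020, plus strand: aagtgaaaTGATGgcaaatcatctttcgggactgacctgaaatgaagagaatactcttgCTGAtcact
SNORA63 in *Eif4a2*, chr16:23110383-23110507, plus strand: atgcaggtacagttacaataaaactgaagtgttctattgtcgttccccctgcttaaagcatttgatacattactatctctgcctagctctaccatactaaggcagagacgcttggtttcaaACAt
another SNORA63 in *Eif4a2*, chr16:23111301-23111429, plus strand: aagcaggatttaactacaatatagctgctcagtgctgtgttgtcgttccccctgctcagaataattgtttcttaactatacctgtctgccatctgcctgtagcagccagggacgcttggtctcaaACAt
SNORA4 in *Eif4a2*, chr16:23111617-23111755, plus strand: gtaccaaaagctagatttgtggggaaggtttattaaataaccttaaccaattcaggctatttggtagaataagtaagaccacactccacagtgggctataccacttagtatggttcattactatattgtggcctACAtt
SNORA18 in *Taf1d*, chr9:15313802-15313932, plus strand: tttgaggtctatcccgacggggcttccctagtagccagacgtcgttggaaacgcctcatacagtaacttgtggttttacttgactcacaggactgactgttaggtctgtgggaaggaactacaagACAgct
SNORD5 in *Taf1d*, chr9:15314074-15314144, plus strand: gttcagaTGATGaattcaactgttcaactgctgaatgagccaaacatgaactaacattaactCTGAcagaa
SNORD24 in *Rpl7a*, chr2:26911261-26911334, plus strand: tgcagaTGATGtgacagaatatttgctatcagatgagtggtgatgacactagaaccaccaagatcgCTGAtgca
SNORD36 in *Rpl7a*, chr2:26912218-26912291, plus strand: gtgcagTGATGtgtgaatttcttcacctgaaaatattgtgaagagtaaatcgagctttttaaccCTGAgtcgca

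The snoRNAs took up 11.9% of the summed intron length of *Eif4a1*, 7.47% of that of *Taf1d*, 18% of that of *Eif4a2* and 17.5% of that of *Rpl7a*. *Eif4a1* encodes the RNA helicase of the cap-binding complex that starts translation. Replicate 1 had an exon FPKM of 16.5 and an intron FPKM of 30.8 for this gene. Replicate 2 had 17.7 and 14.1, which gave ratios of 1.87 and 0.797 and a ratio of the means of 1.31. The mice thus had similar exon values and differed over 2-fold in the introns. *Eif4a2*, its paralog, had exon FPKM of 33.1 and 42.4 and intron FPKM of 32.2 and 38.4, and a ratio of 0.935. The mean intron FPKM of *Eif4a2*, 35.3, was the highest among the members and the 16th of all genes. *Taf1d*, a subunit of the factor that recruits RNA polymerase I to ribosomal DNA, had exon FPKM of 13.9 and 16.7 and intron FPKM of 12.3 and 18.1, and a ratio of 0.993. *Eif4a1* in replicate 1 and *Taf1d* in replicate 2 were the only 2 cases among the members of an intron FPKM above the exon FPKM of the same mouse. *Rpl7a*, a protein of the large ribosomal subunit, had exon FPKM of 24.6 and 12.3 and intron FPKM of 13.7 and 4.4, so both values were lower in replicate 2. Its ratio was 0.491. The coding sequence of *Rpl7a* has 25 near-identical copies in the genome and how reads with several matches were counted is not given in the sources used here.

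**Figure D1:**
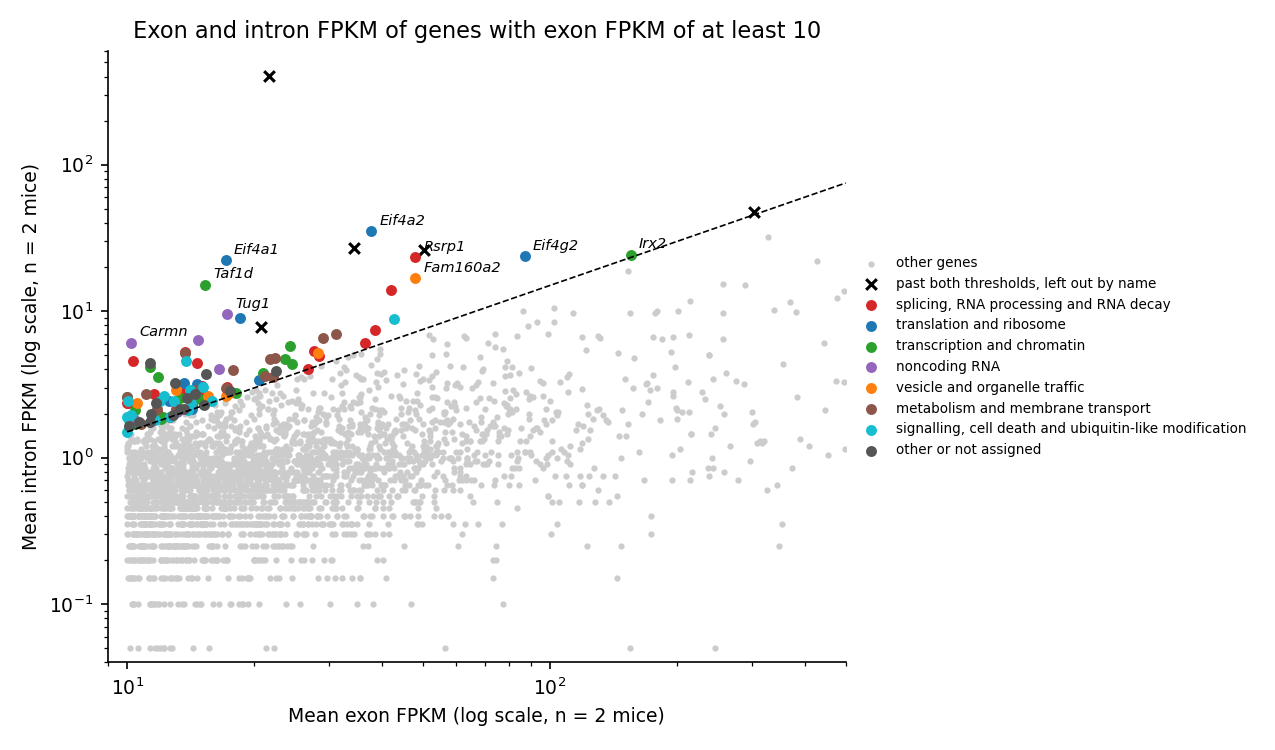
Mean exon FPKM (x axis, log scale) against mean intron FPKM (y axis, log scale) of genes at a mean exon FPKM of 10 or more, n = 2 mice. Coloured points are the 107 members by role, crosses are the 5 genes past both thresholds that were left out by name, and the dashed line is a ratio of 0.15. A total of 75 genes with an intron FPKM of 0 or an exon FPKM above 500 are not drawn. Most members sit just above the line at low exon FPKM, and *Eif4a1*, *Taf1d* and *Eif4a2* sit far above it.

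Over all members the ratio ranged from 0.15 to 1.31, with a median of 0.191, and the other 3005 genes past the exon threshold had a median of 0.0335. There were 17 members with a ratio of at least 0.3, 31 from 0.2 to 0.3 and 59 under 0.2, so that most members lay close to the threshold. Without the names left out, 112 genes passed, which is 3.6% of the genes past the exon threshold. The values of the members were low: the exon FPKM was 10.0 to 155.2 with a median of 14.1, compared with 19.9 in the other genes, and 82 members (76.6%) were under 20, compared with 50.4% of the others. The intron FPKM was 1.5 to 35.3 with a median of 2.85, compared with 0.75. Among genes with an exon FPKM under 20, members had a median exon FPKM of 13.05 and others 13.45, and the median intron FPKM was 2.55 and 0.6. At like exon values the members were therefore the genes with more intron signal, as the rule requires. The share of genes that were members fell from 5.13% at an exon FPKM of 10 to 20 to 2.23% at 20 to 50, and was 1 of 274 at 50 to 100 and 1 of 190 at 100 to 1000. None of the 20 genes above 1000 was a member. The members held 0.245% of the summed exon FPKM of replicate 1 and 0.108% in replicate 2, and 5.37% and 4.95% of the summed intron FPKM. The exon sums were 852960.6 and 1788118.6, of which 25 milk protein and other alveolar secretory genes held 698349.7 and 1639108.5. The exon share is thus set against unlike totals. The median log2 ratio of replicate 2 to replicate 1 in exon FPKM + 1 was -0.084 in the members.

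Values just inside and just outside the thresholds were close to each other. *Diablo*, which frees caspases from their inhibitors, sat on both thresholds with exon FPKM of 10.0 in each mouse and intron FPKM of 1.4 and 1.6. *Azi2*, with a ratio of 0.151, and *Ube2h*, with 0.151, were the next members. *Slc20a1* (0.148), *Sox10* (0.148) and *Rbm39* (0.147) were just outside. At the exon threshold *Plcl1*, *Tnrc6a*, *Ndor1* and *Ppp1r10*, all at 10.0, were inside, and *Mbd1* (9.95), *Foxo3* (9.95) and *Zfp809* (9.9) were outside with ratios of 0.196, 0.151 and 0.167. The files give FPKM with 1 decimal, and 95 of 107 members would pass at the least ratio that this rounding allows.

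The ratio was at or above 0.15 in both mice for 69 members (64.5%), in replicate 1 alone for 12 and in replicate 2 alone for 26. Over all genes past the exon threshold 2.35% were at or above 0.15 in both mice, and since the rule used the mean of the mice, nothing is read from this contrast. The rule applied to each mouse by itself chose 114 genes in replicate 1 and 112 in replicate 2, of which 51 were shared, 44.7% of the former and 45.5% of the latter. The largest differences of the ratio toward replicate 1 were those of *Mrpl41* (0.269 and 0.0943), *Eif4a1*, *Ywhaz* (0.292 and 0.144), *Slc15a2* (0.198 and 0.110) and *Plcl1* (0.256 and 0.144). Those toward replicate 2 were of *Prpf38b* (0.154 and 0.5), *Eif4g2* (0.128 and 0.371), *Lzts2* (0.146 and 0.407), *Slc25a3* (0.117 and 0.320) and *Ppp1r10* (0.159 and 0.432). In *Eif4g2*, an initiation factor for cap-independent translation, the exon FPKM was 70.1 and 104.1 and the intron FPKM was 9.0 and 38.6. The intron signal of *Eif4g2* thus differed by 2.09 on the log2 scale, while its exon signal differed less than 2-fold.

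**Figure D2:**
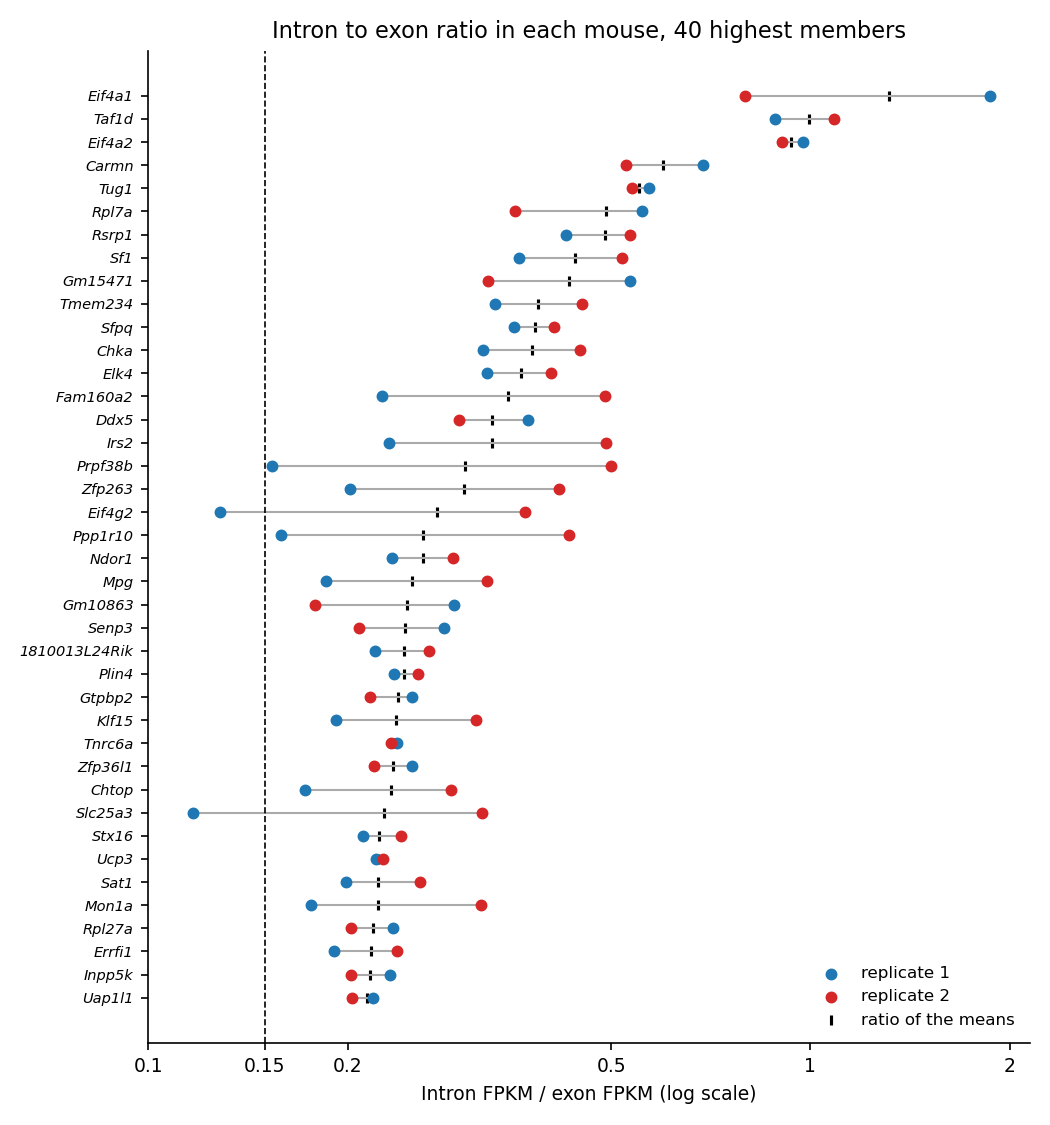
Intron to exon FPKM ratio (x axis, log scale) of the 40 members with the highest ratio, in replicate 1 (blue), replicate 2 (red) and as the ratio of the means (black bar), joined by a line. The dashed line is the threshold of 0.15. *Eif4g2* and *Slc25a3* are under it in replicate 1, and the mice lie close together in *Eif4a2*, *Tug1*, *Sfpq*, *Tnrc6a* and *Ucp3*.

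The exon FPKM (+ 1) differed over 2-fold between the mice in 9 members (8.41%), compared with 7.42% of all genes past the exon threshold. The intron FPKM (+ 0.1) differed over 2-fold in 11 members (10.3%), compared with 6.62%. Of the 9 members apart in exons, 8 were higher in replicate 1, and over all genes past the exon threshold 179 of the 231 genes apart in exons were. The 8 were *Lzts2* (18.5 and 5.4), *Uap1l1* (32.5 and 12.3), *Fam173a* (21.9 and 8.5), *Fam193b* (14.6 and 5.6), *Stk11* (20.1 and 8.2), *Irx1* (17 and 7.3), *Ssh3* (21.9 and 9.9) and *Rpl3* (19.5 and 9.0), chosen for naming after their values were seen. *Ube2b*, a ubiquitin-conjugating enzyme, was higher in replicate 2 (9.2 and 21.1). The GC content of the exons moved with these differences. Across the 107 members the Spearman correlation between exon GC content and the log2 ratio of replicate 2 to replicate 1 was -0.65, and it was -0.66 across 3111 genes past the exon threshold. For introns the correlations were -0.59 and -0.37. These are correlations across genes of the same 2 libraries, and genes are not independent replicates. The part of GC content in the choice of members was not tested. The median GC content of the exons was 49.8% in members and 50.1% in the other genes.

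**Figure D3:**
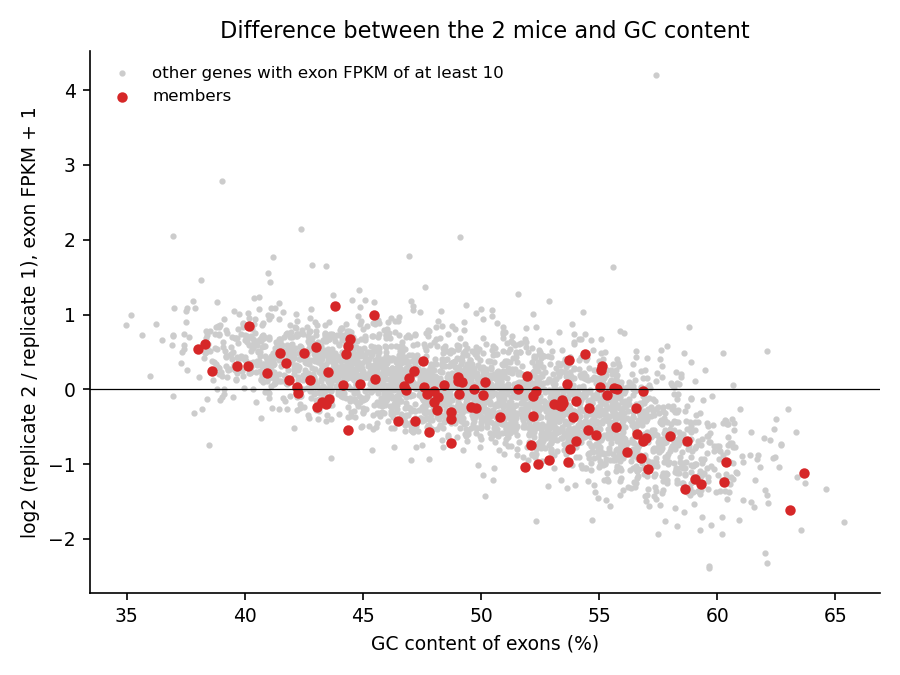
GC content of the exons (x axis, percent) against the log2 ratio of exon FPKM + 1 of replicate 2 to replicate 1 (y axis) for the 107 members (red) and the other genes past the exon threshold of 10 (grey). In both sets GC-rich genes lie lower, that is, toward replicate 1, with Spearman correlations of -0.65 in the members and -0.66 in all genes.

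By role, splicing, RNA processing and RNA decay was the largest class with 21 members. The roles were assigned from gene names after the members were known, and to the members alone. The class sizes therefore have no share over all genes beside them, and do not show that a role was more frequent among members. There were 17 members in transcription and chromatin, 16 in signalling, cell death and ubiquitin-like modification, 15 in metabolism and membrane transport, 9 in translation and the ribosome, 7 in vesicle and organelle traffic, 6 noncoding RNAs, and 16 others. The median ratio was 0.194 in the RNA processing class, 0.238 in translation and the ribosome and 0.339 in the noncoding RNAs, and between 0.169 and 0.214 in the other classes.

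The 2 lists of splicing genes held 15 members. Of the CLK kinases, cyclin L and SR-related proteins, 7 of 20 genes past the exon threshold were members (35%), and of the hnRNPs and other splicing factors 8 of 32 (25%), compared with 3.44% of all genes. Together these are 15 of 52 genes, or 14.0% of the members compared with 1.23% of the other genes. The ratio was high in the lists as a whole, with a median of 0.0980 over the 52 genes compared with 0.0349 over all 3112, and 43 of the 52 were above the latter. The lists were chosen with earlier results of these data known, and the 52 genes include the 15 members. These contrasts are therefore descriptions and give no independent support. A further 10 of the 52 genes lay from 0.10 to under 0.15, compared with 163 of all 3112 genes (5.24%). Among the 10 were *Rbm39*, *Clk1* (0.139) and *Arglu1* (0.134), the last 2 named after their values were seen. At the other end *Prpf8*, the core of the spliceosome, had a ratio of 0.0146, and *Sf3b2* one of 0.0163.

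The highest of the SR-related genes was *Rsrp1*, which encodes a serine- and arginine-rich protein. It had exon FPKM of 40 and 56 and intron FPKM of 17.1 and 29.9, and a ratio of 0.490. *Prpf38b*, linked to the spliceosome, had exon FPKM of 16.9 and 12.4 and intron FPKM of 2.6 and 6.2. *Nktr*, a cyclophilin with an SR-like domain, had exon FPKM of 28.0 and 28.9 and intron FPKM of 4.9 and 5.0, and was nearly the same in the mice. The kinases *Clk3* and *Clk4*, which phosphorylate SR proteins, had ratios of 0.190 and 0.162. In *Clk3* the exon FPKM was 20.2 and 9.8, and in *Clk4* it was 15.1 and 13.3. *Luc7l2*, a component of the U1 particle, had a ratio of 0.207, and *Srek1*, a splicing regulator, one of 0.204. *Rsrp1* was above the other 6 in both mice and *Prpf38b* in replicate 2 (0.5) came nearest to it (0.534).

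Among the splicing factors, *Sf1*, which binds the branch point, had exon FPKM of 10.2 and 10.4 and intron FPKM of 3.7 and 5.4, and a ratio of 0.442. *Sfpq*, a nuclear RNA-binding protein of paraspeckles, had exon FPKM of 14.0 and 13.4 and intron FPKM of 5.0 and 5.5, and a ratio of 0.383. The hnRNPs are abundant proteins that coat nascent RNA and influence splicing. Of these, *Hnrnpa2b1* had exon FPKM of 39.2 and 38 and intron FPKM of 5.6 and 9.4. *Hnrnpu* had exon FPKM of 36.1 and 37.0 and intron FPKM of 5.1 and 7.0. *Hnrnph1* had exon FPKM of 27.8 and 27.6 and intron FPKM of 4.6 and 6.1. In these 3 genes, the hnRNP members other than *Hnrnpl*, *Hnrnpdl* and *Hnrnpc*, the intron value was higher in replicate 2. It was lower in replicate 2 in *Hnrnpdl* (3.6 and 2.5) and *Hnrnpl* (4.2 and 3.9) and about level in *Hnrnpc* (1.9 and 2.0), so the hnRNPs did not share a direction between the mice. Of the helicases and export and decay factors 3 of 14 genes were members (21.4%, compared with 3.44% of all genes), namely *Eif4a1*, *Eif4a2* and *Ddx5*. *Ddx5*, a helicase with roles in splicing and microRNA processing, had exon FPKM of 38.5 and 45.5 and intron FPKM of 14.4 and 13.4, and a ratio of 0.331.

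**Figure D4:**
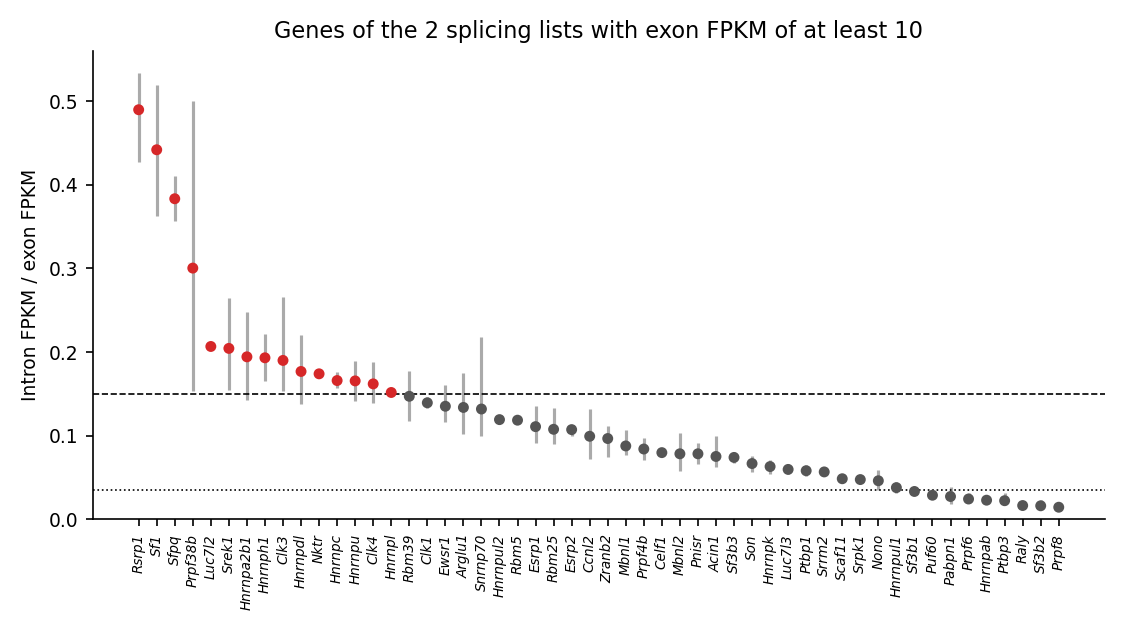
Intron to exon FPKM ratio (y axis) of the 52 genes of the splicing lists past the exon threshold of 10, ordered by ratio. Points are the ratio of the means (red for the 15 members), grey lines join the ratios of the 2 mice, the dashed line is the threshold of 0.15 and the dotted line the median of all genes, 0.0349. Most of the genes, 43 of 52, lie above the dotted line.

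Other members act on RNA without being in these lists, and some are described as the rule on named genes gave them. *Tnrc6a*, a partner of Argonaute in microRNA silencing, had exon FPKM of 10.1 and 9.9 and intron FPKM of 2.4 and 2.3. *Trmt10c*, a subunit of mitochondrial RNase P, had a ratio of 0.169 and hosts SNORA70 in its sole intron. *Sat1* acetylates polyamines and is known for a regulated exon. It was the 1 member of 7 genes (14.3%, compared with 3.44% of all genes) in the list of genes with regulated introns. Its exon FPKM was 37.2 and 25.3 and its intron FPKM was 7.4 and 6.5.

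The 6 noncoding genes were 5.61% of the members, compared with 0.366% of the other genes. *Carmn*, the host of *Mir143* and *Mir145a*, microRNAs of smooth muscle, had exon FPKM of 9.0 and 11.4 and intron FPKM of 6.2 and 6.0, and a ratio of 0.598. *Tug1*, a long noncoding RNA of which a part is known to keep its introns in the nucleus, had exon FPKM of 13.5 and 21.0 and intron FPKM of 7.7 and 11.3, and a ratio of 0.551. Exons of other *Tug1* transcripts in GENCODE M21 cover 93.1% of its RefSeq introns, so its intron FPKM depends on which transcripts define an intron. The authors merged the exons of all UCSC transcripts of a gene, and the *Tug1* introns that this left were not compared with the RefSeq ones. *Gm15471* had exon FPKM of 15 and 14.4 and intron FPKM of 8.0 and 4.7, and 1023 bp of its introns overlap exons of *Dclre1b* on the opposite strand. The other noncoding members were *Gm10863*, *2610507I01Rik* and *AI463170*, with ratios of 0.246, 0.178 and 0.156. *Xist* was the sole gene of the list of nuclear long noncoding RNAs past the exon threshold, and had a ratio of 0.0110. That list does not hold the member *Tug1*.

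Of the genes of translation, *Rpl27a*, *Rpl30* and *Rpl3* joined *Rpl7a*. This makes 4 of 45 cytosolic ribosomal protein genes (8.89%, compared with 3.44% of all genes). The median ratio of the 45 genes, however, was 0.0205 and thus below that of all genes. All 4 host snoRNAs and all 4 have between 7 and 25 near-identical copies. *Rpl27a* had exon FPKM of 14.5 and 14.8 and intron FPKM of 3.4 and 3.0. *Rpl30* had exon FPKM of 21.2 and 19.7 and intron FPKM of 2.4 and 4.4. *Mrpl41* was the 1 member of 38 mitochondrial ribosomal protein genes (2.63%, near the 3.44% of all genes). Its intron of 206 bp was the shortest of all members. *Gtpbp2*, a GTPase that acts on stalled ribosomes, had a ratio of 0.238.

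Among transcription factors, *Stat5a*, which carries the prolactin signal in the mammary epithelium, had the same exon FPKM of 21.0 and the same intron FPKM of 3.8 in both mice. The 25 milk protein and other alveolar secretory genes had a median ratio of 0.00750. *Stat5a* was the 1 member among them (4%, near the 3.44% of all genes). Its neighbour and paralog *Stat5b*, named for comparison, had exon FPKM of 14.1 and 12.6 and intron FPKM of 1.3 and 1.1, and a ratio of 0.0899. *Irx2*, a homeobox factor, had the highest exon FPKM of the members, 156.5 and 153.9, with intron FPKM of 27.7 and 21.0, and *Irx1* of the same gene cluster had 17 and 7.3 with 2.5 and 1.3. *Elk4*, a serum response cofactor of the ETS family, had exon FPKM of 11.1 and 11.6 and intron FPKM of 3.6 and 4.7. *Klf15*, a metabolic zinc finger factor, had a ratio of 0.237. *Tef*, a clock output factor, had a ratio of 0.191 and was the 1 member of 8 genes of the clock list (12.5%). That list does not hold the member *Cipc*. *Chd3*, a nucleosome remodeller, was the 1 member of 24 chromatin genes (4.17%, near the 3.44% of all genes) with a ratio of 0.152. *H3f3a*, a replacement histone with 16 near-identical copies, was the 1 member of 3 histone genes (33.3%). Shares over lists as short as 3 or 8 genes rest on 1 member. Of 26 zinc finger genes named Zfp, Zkscan, Zscan or Zbtb, 4 were members (15.4%, compared with 3.44% of all genes). These were *Zfp36l1*, which destabilizes mRNAs, *Zfp207*, *Zfp263* and *Zscan26*, with ratios of 0.234, 0.174, 0.3 and 0.178. None of 5 immediate early genes and none of 8 genes of the integrated stress response was a member. At the 3.44% of all genes, lists of these sizes would hold fewer than 1 member.

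In signalling, *Irs2*, an adaptor of the insulin receptor, had exon FPKM of 16.9 and 10.6 and intron FPKM of 3.9 and 5.2, and a ratio of 0.331. *Mcl1*, an inhibitor of apoptosis, had exon FPKM of 40.4 and 45.3 and intron FPKM of 9.7 and 7.9 over introns of 971 bp in all. *Errfi1*, an inhibitor of the EGF receptor, had a ratio of 0.217. *Senp3*, a SUMO protease of the nucleolus, had exon FPKM of 10.0 and 10.1 and intron FPKM of 2.8 and 2.1. *Senp3* and *Eif4a1* were the sole pair of members next to each other within 20000 bp: both lie on the minus strand of chromosome 11, *Senp3* at 69673110 to 69682084 and *Eif4a1* downstream of it at 69666936 to 69672423, with 686 bp between them. Of 67 ubiquitin ligases and peptidases 4 were members (5.97%, compared with 3.44% of all genes), *Rnf169*, *Ube2b*, *Rnf166* and *Ube2h*.

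In metabolism, *Chka*, the choline kinase of phosphatidylcholine synthesis, had exon FPKM of 14.7 and 12.7 and intron FPKM of 4.7 and 5.7, and a ratio of 0.380. *Ucp3*, a mitochondrial carrier, had exon FPKM of 24 and 11.5 and intron FPKM of 5.3 and 2.6, so that its ratio, 0.221 and 0.226, was alike while its level was not. *Dgat1*, the enzyme of the last step of triglyceride synthesis, had a ratio of 0.175. The phosphate carrier *Slc25a3*, which hosts SNORA53, was 1 of 3 members among 73 solute carriers (4.11%, near the 3.44% of all genes), with *Slc25a45* and *Slc15a2*. *Fam160a2*, which acts in vesicle transport, had exon FPKM of 51.0 and 45.1 and intron FPKM of 11.5 and 22.1, and a ratio of 0.350. *Tmem234*, of no assigned role here, had a ratio of 0.388 and 13 transcripts that GENCODE marks as targets of nonsense-mediated decay.

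The remaining members are named so that each is accounted for, outside the rule on named genes. In RNA processing and transcription they were *Chtop*, an mRNA export factor (0.233), *Eny2*, which acts in transcription and mRNA export (0.201), *Irf3*, the factor of the interferon response (0.168), *Cipc*, an inhibitor of CLOCK (0.154), and *Rbm7*, of the nuclear exosome targeting complex (0.151). In vesicle traffic, *Stx16* (0.223) and *Stx5a* (0.184) are syntaxins, and *Mon1a* (0.222), *Arfgap1* (0.171), *Mlph* (0.158) and *Arfip2* (0.155) made up the rest. In metabolism there were *Inpp5k* (0.216), *Stard5* (0.199), *Pip4p1* (0.183), *Dhodh*, an enzyme of pyrimidine synthesis (0.170), and *Dpm2* (0.165). Members of other or unassigned roles were *Mpg*, a DNA glycosylase (0.250), *1810013L24Rik* (0.244), *Vstm5* (0.201), *Blcap* (0.187), *Marveld3* (0.175), *2010315B03Rik* (0.164), *Zc3h7a* (0.163), *Cdv3* (0.162), *Mfsd11* (0.158), *Dnajc14* (0.154) and *Tmem110* (0.152). These genes had intron FPKM between 1.1 and 5.5 in each mouse. By name, 6 of 41 genes with RIKEN, Gm or accession symbols (14.6%) were members, and 2 of 45 genes named Tmem (4.44%) were, compared with 3.44% of all genes. A list of 18 genes drawn by the endings of antisense and opposite-strand names held no member, but it was matched on the name alone and holds genes that are not antisense, such as *Gas5*, which passed both thresholds and was left out by name.

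No member was among the 17 aminoacyl-tRNA synthetases, 21 mitochondrial fatty acid, amino acid and one-carbon enzymes, 11 genes named Ccdc or 3 genes of the DNA repair list past the exon threshold. That list does not hold the member *Mpg*, and at 3.44% of all genes lists of these sizes would hold fewer than 1 member. Of the markers of other cell types past that threshold, *Plin4* was the 1 member of 9 adipocyte genes (ratio 0.243, exon FPKM 13.2 and 9.0). There was none among 6 myoepithelial, 3 endothelial, 4 macrophage, 1 lymphocyte and 6 fibroblast genes. These lists are also short enough to hold fewer than 1 member at 3.44%. None of the 10 skeletal muscle markers passed the exon threshold. The secretory epithelium was present in both libraries, with exon FPKM of *Csn2*, a casein, of 108555 and 481937. The milk protein genes differed in size of change, with *Wap* at 172934.6 and 234774 and *Lalba* at 8453.5 and 8265.4. *Adipoq*, an adipocyte marker, was at 85.3 and 113, whereas *Plin1* was at 7.8 and 2.6. The 12 genes of the adipocyte list summed to 1555.1 and 1462.9, so its markers did not share a direction between the mice. In bulk tissue a change in the number of cells and in the RNA per cell cannot be told apart.

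Of the members, 12 (11.2%) host 29 small nucleolar or small Cajal body RNAs, compared with 73 of 3004 other genes (2.43%), and 6 (5.61%) host a microRNA, compared with 3.13%. Either kind was present in 17 members (15.9%) and in 5.26% of the other genes. Beside the 4 genes shown above with their sequences, the hosts among the 12 were *Eif4g2*, *Slc25a3*, *Rpl27a*, *Kpna4*, *Trmt10c*, *Rpl30*, *Chd3* and *Rpl3*. *Kpna4* and *Chd3* host only a small Cajal body RNA, a kind that is counted with the snoRNAs here. The microRNA hosts were *Carmn*, *Taf1d*, *Ppp1r10*, *Diablo*, *Ssh3* and *Stx5a*. The share of members was 3.14% among genes with no snoRNA, 10.5% of 57 genes with 1 and 21.4% of 28 genes with 2 or more. The median ratio was 0.0504 over the 85 hosts and 0.0345 over the 3026 genes that host none, and most hosts, 73 of 85, were not members, *Snhg3* and *Gas5* among them by name. The share of hosts of either kind among the genes chosen was 14.3% with replicate 2 alone and 9.65% with replicate 1 alone.

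Near-identical copies were present for 17 of 101 members with a coding sequence (16.8%), compared with 7.99% of the other genes. Of the 8 genes with 11 or more copies, 4 were members, *Rpl7a*, *H3f3a*, *Rpl30* and *Rpl27a*. A shift of reads between a gene and its copies was not tested, and the 90 members without a copy or without a coding sequence included all 15 genes of the splicing lists.

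The summed intron length of the members had a median of 9235 bp, compared with 17056 bp in the other genes, and 33 members (30.8%) were under 5000 bp, compared with 20.04%. There were 7 members (6.54%) at 50000 bp or more, compared with 19.7%. Over all genes the ratio did not fall with intron length: its median was 0.0196 under 2000 bp and 0.0389 at 50000 bp or more, with a Spearman correlation of 0.13 across 3111 genes. Genes under 2000 bp were members in 3.28%, and the highest share of members was 6.39% at 2000 to 5000 bp. The shortest were those of *Mrpl41*, *AI463170* (414 bp), *Irf2bp2* (611 bp), *Mcl1*, *Fam173a* (1310 bp) and *Rpl7a* (1641 bp). The longest were those of *Plcl1* (341785 bp), *Rreb1* (112335 bp), *Ube2h* (88471 bp), *Il15* (69678 bp), *Tnrc6a* (62933 bp) and *Rnf169* (53048 bp). In *Rnf169* 3253 bp of the introns overlap exons of *Gm5115* on the same strand, the sole such overlap among the members. Introns overlapped exons of a gene on the opposite strand in 10 members (9.35%) and in 8.92% of the other genes. Whether the counting used the strand is not given in the sources used here.

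Annotated transcripts differed in part. At least 1 transcript marked as a target of nonsense-mediated decay was annotated in GENCODE M21 for 46 members (43.0%), compared with 28.1% of the other genes, whereas a transcript with a retained intron was annotated for 68 members (63.6%) and for 63.6% of the other genes. Exons of other annotated transcripts covered a median of 14.5% of the RefSeq intron length of the members and 4.32% of that of the other genes. The share of members rose from 2.0% of genes with a cover under 5% to 13.0% of genes with a cover of 50% or more. Members also had more annotated transcripts, with a median of 7 compared with 5. Introns that begin with ATATCCTT or GTATCCTT, letters of the minor (U12-type) class read on the transcribed strand, were present in 4 members (3.74%), *Zfp207*, *Chd3*, *Hnrnpl* and *Ube2h*, and in 3.23% of the other genes.

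**Figure D5:**
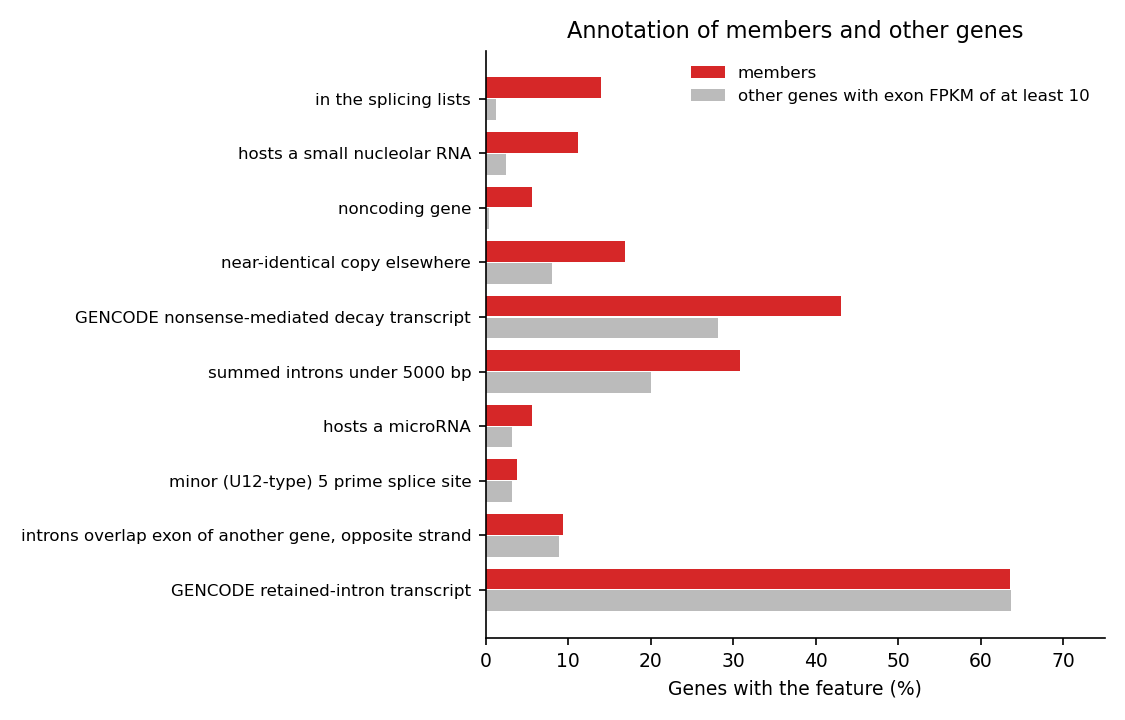
Share of genes with each feature (x axis, percent) among the members (red) and the other genes past the exon threshold of 10 (grey). Splicing genes (14.0% and 1.23%), hosts of small nucleolar or small Cajal body RNAs (11.2% and 2.43%) and noncoding genes (5.61% and 0.366%) were each a larger share of the members. Genes with a retained-intron transcript have equal shares at this precision (63.6% and 63.6%). The splicing lists were chosen with earlier results of these data known.

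The 5 genes that passed both thresholds but were left out by name had values of the same order or above. *Snhg3*, a snoRNA host gene, had exon FPKM of 9.3 and 34.1 and intron FPKM of 356.3 and 444.4, and a ratio of 18.4. *Srsf2* and *Srsf5*, which encode SR proteins, had ratios of 0.787 and 0.522, and were the 2 of 5 Srsf genes past the exon threshold that reached 0.15. *Gas5*, also a snoRNA host, had a ratio of 0.378, and *Tbrg4* one of 0.156 with exon FPKM of 314.7 and 291.5 and intron FPKM of 43.4 and 51.4.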

How the data were processed

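Total RNA of mammary tissue from 2 wt/Wap-Tbrg4 mice on day 10 of lactation was sequenced. The authors prepared TruSeq Stranded Total RNA libraries and aligned reads to mm10 with STAR. Gene coordinates came from UCSC known genes, and the exons of all transcripts of a gene were merged. Reads were counted with HTSeq over the merged exons and over the introns between them. The authors deposited exon and intron FPKM made with DESeq2, rounded to 1 decimal. Versions, strand setting, the handling of reads with several matches and the totals behind the FPKM are not given in the sources used here. Without read counts the depth of the samples is unknown, and only the 2 mice give the precision.

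Each file lists 20550 rows, of which 35 without a usable symbol were dropped. Means over the mice and their ratio were taken from the values as deposited. The thresholds had a tolerance for computer arithmetic error alone, and none for the rounding of the deposited values. Differences between mice are log2 ratios of exon FPKM + 1 and intron FPKM + 0.1. RefSeq curated models on GRCm38.p6 gave positions, introns and small RNA genes for 20453 genes and all 107 members, and GENCODE M21 gave transcript types. The build was taken to be that of the labels, mm10. The introns of these models are not the authors' own. A near-identical copy is another genomic place aligned by minimap2 2.31 over at least 50% of the longest coding sequence at 95% identity or more. Tables were made with Python 3.11.15, numpy 2.4.6 and pandas 2.3.3.

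Features of members are set beside those of the other genes past the exon threshold of 10, and list counts beside the share of members among all genes past it, 3.44%. Since the rule used the values, no test was run. The members, the gene lists and their order were chosen with earlier results of these data known, and roles were assigned after the values were seen. Named genes are the 12 highest ratios, the 10 highest intron and 5 highest exon FPKM, the 5 largest differences between mice in each direction, 3 genes on either side of each threshold, up to 6 members of each list, hosts of small RNAs, and the 6 longest and 6 shortest introns. Alternatives were other thresholds, pseudocounts, a common exon sum, and 1 mouse at a time.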

Additional observations from a re-analysis of the deposited data

How the results depend on the processing

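Of 98 alternatives, 82 stayed within the limits set for their result and 16 moved. The limits were a factor of 1.5 for the number of members and a 95% interval over the 107 members for shares. Such intervals treat genes as independent and do not measure the spread between mice. They are wide: 75 members with a common exon sum stayed within them. So did a small RNA host share of 9.65% with replicate 1 alone, near its lower limit of 9.54%. The number of members, 107, was 336 with an exon FPKM of at least 5, 25 with at least 20 and 2751 with no exon filter. It was 267 with a ratio of at least 0.10, 48 with at least 0.20 and 343 with a pseudocount of 1. The share at or above the ratio in both mice fell from 64.5% to 20.1% with a pseudocount of 1, which by construction lets in genes of low FPKM. The share in the splicing lists, 14.0%, was 7.87% with a pseudocount of 1, 6.55% with an exon FPKM of at least 5, 24% with at least 20 and 1.67% with no filter. The share of noncoding or accession-named genes, 7.48%, was 0% with an exon FPKM of at least 20 (0 of 25 genes), and that of small RNA hosts, 15.9%, was 5.31% with no filter. Scaling each mouse to an exon sum of 1000000 raised the share over 2-fold apart to 62.7% for exons and 61.3% for introns, and with no filter the exon share was 3.27%. The exon sums were 852961 and 1788119, and the rise follows from that difference.

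With 1 mouse left out, the number of members was 112 to 114, the noncoding or accession-named share 5.26% to 6.25%, the small RNA host share 9.65% to 14.3%, the share with introns over another gene's exon 11.4% to 13.4% and the splicing share 9.65% to 16.1%. Shares that need both mice have no such value. Alternatives added after seeing the data kept 90 members without a near-identical copy and 90 without a small RNA gene. No paired analysis was possible because the series has 1 RNA-seq group. The unknown depth, 1-decimal values and 2 mice limit all ratios of low genes.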

Other observations

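Genes under the exon threshold also held high intron FPKM. There were 67 genes with an exon FPKM under 10 and an intron FPKM of at least 2, of which 23 had more intron than exon signal. Of the 67, 13 host a small nucleolar or small Cajal body RNA, 20 have a near-identical copy and 15 are noncoding. At least 1 of these features is present in 36. The shares of these features among all genes under the exon threshold were not counted. These counts therefore do not show that a feature was more frequent in genes with intron signal. *Rpl5* had exon FPKM of 3.1 and 4.3 and intron FPKM of 22.5 and 5.7, with 3 small RNA genes in its introns and 5 near-identical copies. *Rpsa* had exon FPKM of 4.7 and 0.7 and intron FPKM of 10.3 and 17.4, with 3 small RNA genes and 7 copies. *Cish*, a target and inhibitor of STAT5 signalling, had exon FPKM of 8.6 and 8.5 and intron FPKM of 5.7 and 6.7, with no copy and no small RNA gene. *Ccnl1*, a cyclin of the splicing machinery, had exon FPKM of 6.4 and 9.1 and intron FPKM of 2.9 and 4.4. These genes were picked after their values were seen.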
